A study of Mus musculus with 20 samples.

Results

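The serpins are a family of proteins that share a fold with an exposed reactive loop. In an inhibitory serpin this loop is the bait: the target serine or cysteine protease cuts it, the serpin changes its shape, and the protease is trapped in a covalent complex. Some members have lost inhibition and act as chaperones or hormone carriers. The letter of a symbol gives the clade: clade A serpins are mostly secreted by the liver, clade B serpins lack a classical signal peptide and stay mostly inside the cell, and the remaining letters hold small secreted or endoplasmic reticulum branches. The members here were all genes whose platform symbol begins with Serpin and that were read by probe sets with a single symbol. There were 40 such genes among 18193 genes measured, with 14 in clade A, 18 in clade B, 2 each in clades F and I and 1 each in clades C, D, G and H.

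Expression was measured on 20 Affymetrix arrays from mouse ES cells of the 129sv/Jae line J1 and their derivatives. Wild type (WT) cells were compared with Dnmt3a-/-Dnmt3b-/- double-knockout (DKO) cells, which lack both de novo DNA methyltransferases, in 5 states with 2 arrays per group. ES cells were undifferentiated. Primitive endoderm (PE) was made from ES cells in 4 days by 100 nM dexamethasone (Dex), which activates Gata4GR, a Gata4 fused to the ligand-binding part of the glucocorticoid receptor. Flk1+ cells were Flk1+/PDGFRa+ mesoderm sorted after 4 days on type IV collagen, and Dex- and Dex+ cells were the sorted mesoderm kept for 4 further days without or with 100 nM Dex. The question was how the endoderm programme that Gata4 starts in ES cells behaves in mesoderm with and without the methyltransferases. All groups carried Gata4GR (WT clone J1G4.2, DKO clone 16G4.3) except replicate 1 of both Flk1+ groups, which came from the parental lines without it. With 1 transgenic clone per genotype, genotype and clone cannot be told apart. The replicates are labelled as biological, and p-values measure only the spread between these arrays.

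The labels were checked first. Dnmt3a lay between 7.46 and 9.44 on the log2 scale on the WT arrays and between 6.18 and 6.83 on the DKO arrays, and Dnmt3b was lower on both DKO arrays than on both WT arrays in every state. Gata4 was at 10.25 to 10.76 in PE of both genotypes and at 10.13 to 10.18 in DKO Dex+ cells, against 7.6 to 7.70 in WT Dex+ cells. The arrays of a group correlated at 0.979 to 0.996 over all genes. The replicates of both Flk1+ groups stood apart. Between the WT Flk1+ replicates 880 genes were at least 2-fold different, 7 Serpin genes included (Serpina1b, Serpinb1a, Serpinb6b, Serpinb9, Serpinb9b, Serpinb9g and Serping1). Between the DKO Flk1+ replicates 698 genes were, with Serpinb9 as the 1 Serpin gene. The other groups had 20 to 256 such genes. Both Flk1+ pairs joined a parental and a transgenic array, scanned on different days.

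Because the genotypes differ in DNA methyltransferases that act on CpG sites, promoters of some members are shown. They belong to the 4 members called in at least 1 comparison below whose promoter windows overlap no annotated gene. They are the 250 bases before the annotated start, 5′ to 3′ on the strand of the gene, from RefSeq on GRCm38.p6. CpG dinucleotides are in capitals.

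Serpinb9b, chr13:33027164-33027413, plus strand: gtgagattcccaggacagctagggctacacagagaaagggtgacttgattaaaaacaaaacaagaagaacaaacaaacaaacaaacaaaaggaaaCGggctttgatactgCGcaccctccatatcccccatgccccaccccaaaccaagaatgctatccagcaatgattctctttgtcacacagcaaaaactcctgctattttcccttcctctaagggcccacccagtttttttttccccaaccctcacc

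Serpinb9g, chr13:33484540-33484789, plus strand: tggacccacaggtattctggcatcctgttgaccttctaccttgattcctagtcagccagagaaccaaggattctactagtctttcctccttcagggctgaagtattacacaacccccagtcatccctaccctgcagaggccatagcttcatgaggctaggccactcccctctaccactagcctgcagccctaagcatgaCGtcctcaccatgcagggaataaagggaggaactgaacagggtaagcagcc

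Serpinh1, chr7:99353240-99353489, minus strand: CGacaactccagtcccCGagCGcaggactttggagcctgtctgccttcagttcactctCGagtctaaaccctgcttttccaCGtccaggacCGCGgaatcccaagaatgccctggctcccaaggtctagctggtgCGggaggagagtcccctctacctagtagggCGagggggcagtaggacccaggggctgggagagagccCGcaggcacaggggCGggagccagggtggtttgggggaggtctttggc

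Serpini1, chr3:75557243-75557492, plus strand: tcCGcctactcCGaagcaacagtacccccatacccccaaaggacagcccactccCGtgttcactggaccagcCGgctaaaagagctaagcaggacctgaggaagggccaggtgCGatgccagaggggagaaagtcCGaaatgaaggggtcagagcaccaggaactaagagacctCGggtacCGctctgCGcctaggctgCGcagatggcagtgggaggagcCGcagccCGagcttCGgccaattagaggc

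The Serpinb9b and Serpinb9g windows held 2 and 1 CpG, and those of Serpinh1 and Serpini1 held 11 and 13. RefSeq promoters were found for 34 of the 40 members (40 starts). At most 5 CpG were present in 32 of these 40 windows (80.0%), against 49.6% of all 32851 promoters of the same length, whose median was 6. Among the other called members, Serpinb6b and Serpinb9 had 3 CpG, Serpinb1b had 2, Serpinb6c had 8, and the starts of Serpinb6a had 2 and 20. GATA motifs (AGATAA as 1 form, besides AGATAG, the form TGATAA and the form TGATAG, on either strand, overlapping matches included) occurred in 16 of the 40 windows, against 26.5% of all promoters. Of the windows of called members, that of Serpinb1b held a match, 144 bases before the start. TATAAA occurred in 8 of the 40 member windows and in 7.6% of all. Serpina7, Serpinb12 and Serpinb2 each gave 2 of these 8 windows, and those of Serpina7 and of Serpinb2 overlap. Serpina7 also gave 2 of the 16 windows with a GATA motif. The same bases can thus be counted more than once. These counts describe the letters only, and methylation was not measured on these arrays.

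A gene was called where limma's p-value, adjusted by Benjamini-Hochberg over all 18193 genes, fell under 0.05 with a change of 2-fold or more. Changes are log2 differences ± SE of the fit, with 2 arrays per group. Any difference among the 10 groups passed limma's F test for 15 of the 40 Serpin genes (37.5%), against 59.9% of all genes. On every array 28 of the 40 members (70.0%) lay below 6.85, the median of all gene values, against 38.3% of all genes. Whether low levels had a part in how many Serpin genes passed or were called was not tested. In at least 1 of the 16 comparisons 11 members were called (27.5%), against 37.5% of all genes. These 11 were Serpinb1a, Serpinb1b, Serpinb6a, Serpinb6b, Serpinb6c, Serpinb9, Serpinb9b and Serpinb9g of clade B, Serping1, Serpinh1 and Serpini1. They made up 64 of the 640 values tested. In each called value that compares one group with another, both arrays of one group lay above both arrays of the other. For both called differences in Dex response, the DKO Dex+ arrays did not overlap the DKO Dex- arrays.

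**Figure D1:**
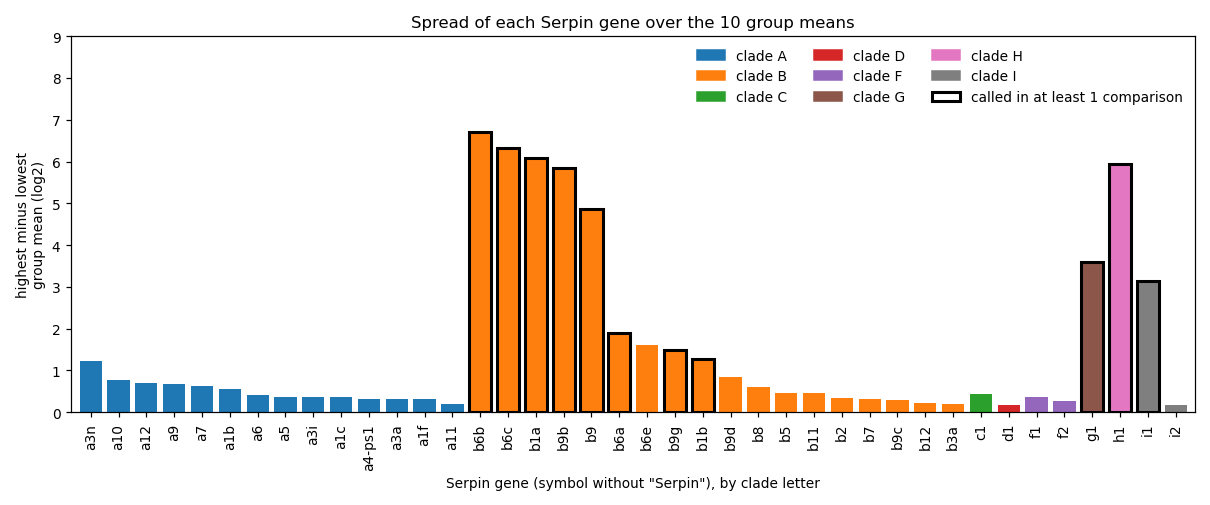
Difference between the highest and the lowest of the 10 group means (log2, y axis) for each of the 40 Serpin genes (x axis), coloured by clade, with a black outline on the 11 genes called in at least 1 comparison. The outlined bars run from 1.26 to 6.70, and the 29 genes without an outline reach at most 1.60.

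The 29 members never called lay in clades A, B, C, D, F and I. All 14 clade A genes were among them, 13 on chromosome 12 and Serpina7, the thyroxine-binding globulin, on X. Their values over all arrays lay between 2.96 and 6.61, and their group means differed by at most 1.21. That largest difference belonged to Serpina3n, a relative of antichymotrypsin, which passed the F test with Serpina10 and Serpina9. Serpina3n lay between 5.45 and 5.51 in WT Dex- cells and at 4.22 and 4.3 in DKO ES cells, the groups with the highest and the lowest mean. Serpina6, the corticosteroid-binding globulin, ranged only from 4.29 to 4.98 over cells with and without Dex. Serpinc1, antithrombin, ranged from 4.17 to 4.81, and Serpind1, heparin cofactor II, from 4.84 to 5.25. Serpini2, a pancreatic relative of neuroserpin, ranged from 4.05 to 4.41. In clade F, Serpinf2 (antiplasmin, the inhibitor of plasmin) ranged from 6.38 to 6.89. The raw intensities were not used, so whether these values were above background was not tested.

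Serpinf1, the antiangiogenic factor PEDF, depended on the probe set. The brightest of its 2 probe sets, used here, ranged from 6.99 to 7.62 and was never called. The other read 7.67 and 7.54 in DKO Dex- cells, 4.85 and 4.95 in DKO Dex+ cells, 5.67 and 6.80 in WT Dex- cells and 5.33 and 5.70 in WT Dex+ cells. On that probe set the value fell by 2.70 ± 0.35 with Dex in DKO cells (limma, adjusted p over probe sets = 0.000106) and the Dex responses of the genotypes differed by -1.98 ± 0.49 (adjusted p = 0.0369). It also rose by 2.07 ± 0.35 from DKO Flk1+ to DKO Dex- cells and was higher by 1.37 ± 0.35 in DKO than in WT Dex- cells. The probe sets correlated at 0.316 over the 20 arrays, so no direction is given for this gene.

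Within clade B the calls differed by chromosome, and so did the levels. Of the 11 clade B members on chromosome 13, 8 were called in at least 1 comparison, and of the 7 on chromosome 1 none was, against 37.5% of all genes. All 7 on chromosome 1 lay below the median of all gene values on every array, as did 4 of the 11 on chromosome 13. The part of level in this difference was not tested. The chromosome 1 genes (Serpinb2, Serpinb3a, Serpinb5, Serpinb7, Serpinb8, Serpinb11 and Serpinb12), which include maspin (Serpinb5), varied by at most 0.61 between group means, and none passed the F test, which 59.9% of all genes passed. The chromosome 13 genes never called were Serpinb9c, Serpinb9d and Serpinb6e. Serpinb6e passed the F test with a spread of 1.60, from 7.86 and 8.01 in WT ES cells to 9.51 and 9.56 in WT Dex+ cells, and its largest single change, 0.99 ± 0.14 from DKO Flk1+ to DKO Dex- cells, was just under 2-fold. The closest changes above 2-fold among called members were those of Serpini1, at 1.02. Serpinb6c and Serpinb6e were each read by a single probe set of a class whose probes can match related transcripts, so signal of near-identical copies cannot be separated.

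**Figure D2:**
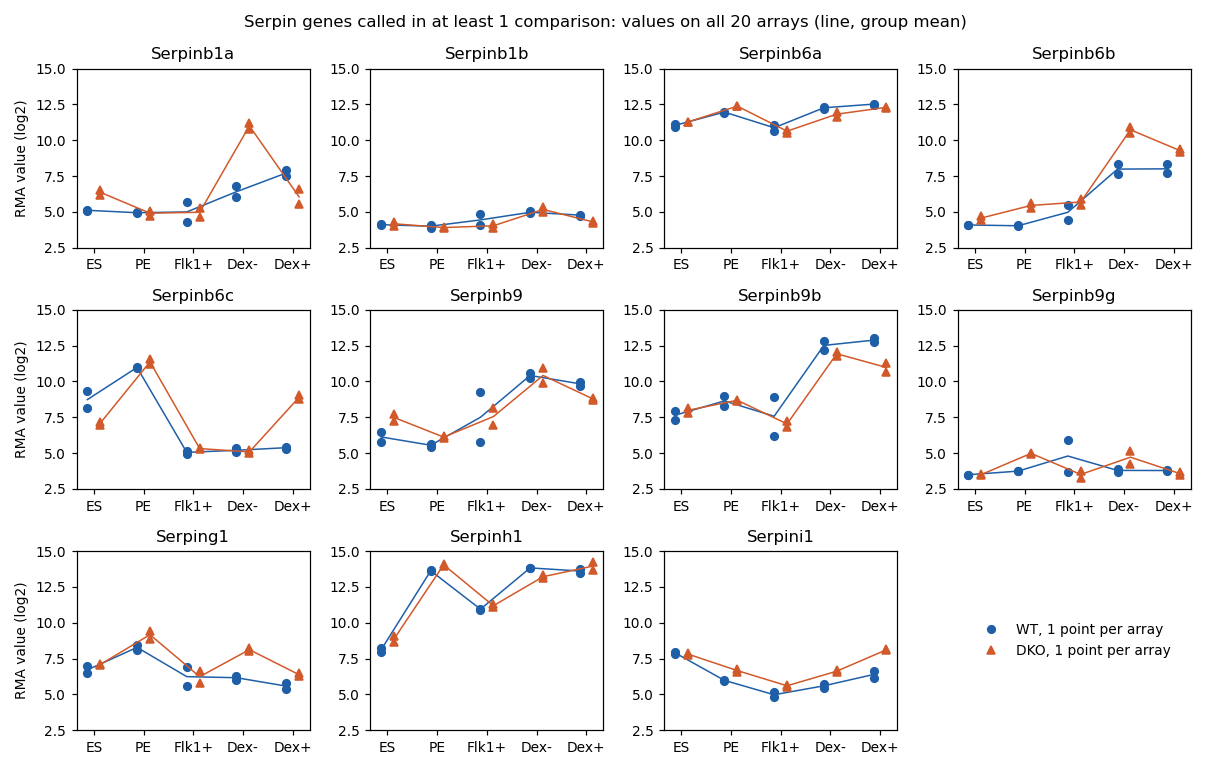
RMA values (log2, y axis) on all 20 arrays for the 11 called genes, by state (x axis), with circles for WT, triangles for DKO and lines through the group means. Serpinb1a is at 10.76 to 11.23 in DKO Dex- cells and at most 7.92 elsewhere, and Serpinb6c is at 8.76 to 9.03 in DKO Dex+ cells but at 5.31 to 5.45 in WT Dex+ cells.

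Several clade B serpins of chromosome 13 rose when mesoderm was kept in culture, 5 of the 11 in WT and 6 in DKO cells. Serpinb9b was at 8.91 and 6.23 in WT Flk1+ cells and at 12.83 and 12.20 in WT Dex- cells. In DKO cells it was at 7.26 and 6.81, then at 12.06 and 11.80. The groups did not overlap in either genotype, and Serpinb9b rose by 4.94 ± 0.58 in WT (adjusted p = 1.21e-05) and by 4.89 ± 0.58 in DKO cells (1.3e-05). Under changed choices, single arrays left out included, the rise ranged from 3.60 to 6.29 in WT and from 4.67 to 5.12 in DKO cells. Serpinb9, whose protein inhibits granzyme B, was at 9.26 and 5.74 in WT Flk1+ cells and at 10.61 and 10.23 in WT Dex- cells. In DKO cells it went from 8.16 and 6.94 to 10.95 and 9.89. These were rises of 2.92 ± 0.75 (adjusted p = 0.0074) and 2.87 ± 0.75 (0.0076), but the WT Flk1+ replicates lay far apart: without the transgenic replicate 2 the WT change was 1.16 and not called (adjusted p = 0.0786), without the parental replicate 1 it was 4.67, and without WT Dex- replicate 1 it was 2.73 (0.0508). In DKO cells the call was lost without Dex- replicate 1 (2.34, adjusted p = 0.0856) or Flk1+ replicate 2 (2.26, 0.0762).

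Serpinb6b, a relative of the cathepsin G inhibitor Serpinb6a, rose in both genotypes. It was at 5.51 and 4.43 in WT Flk1+ cells, 8.35 and 7.61 in WT Dex- cells, 5.87 and 5.50 in DKO Flk1+ cells and 10.95 and 10.50 in DKO Dex- cells. The DKO Dex- arrays were above all others. The rise was 3.01 ± 0.32 in WT (adjusted p = 4.71e-06) and 5.04 ± 0.32 in DKO cells (4.42e-08). Serpinb1a, an inhibitor of neutrophil elastase and related proteases, was at 5.71 and 4.27 in WT Flk1+ cells, 6.03 and 6.77 in WT Dex- cells, 5.27 and 4.67 in DKO Flk1+ cells and 11.23 and 10.76 in DKO Dex- cells. It rose by 6.03 ± 0.42 in DKO cells (adjusted p = 9.71e-08), a 65.3-fold change, and by 1.41 ± 0.42 in WT cells (0.0174). The WT call was lost without WT Flk1+ replicate 2, where the change was 0.69 (2.13 without replicate 1), or WT Dex- replicate 2, where it was 1.04. Serpinb6a rose by 1.39 ± 0.16 in WT and 1.19 ± 0.16 in DKO cells, within a range of 10.54 to 12.55 over all arrays. Serpinb1b was at 3.88 and 4.17 in DKO Flk1+ cells and at 5.34 and 4.99 in DKO Dex- cells, a rise of 1.14 ± 0.21 (adjusted p = 0.000552) that fell short of 2-fold without DKO Dex- replicate 1 (0.97) or DKO Flk1+ replicate 1 (1.00), and in WT cells it was not called.

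Outside clade B, Serpinh1 also rose from Flk1+ to Dex- cells in both genotypes, and Serping1 (1.89 ± 0.36) and Serpini1 (1.02 ± 0.18) rose in DKO cells. The Serpini1 change fell short of 2-fold without DKO Dex- replicate 2 (0.94) or DKO Flk1+ replicate 1 (0.96). In all, 6 Serpin genes rose and none fell in WT cells, and 9 rose and none fell in DKO cells. Of all genes, 7.49% rose and 7.79% fell in WT and 8.23% rose and 8.39% fell in DKO cells. The median change of the 40 members was 0.08 in WT and 0.18 in DKO cells, against 0.01 and 0.03 for all genes. Several marker lists also changed. Of smooth muscle and mural cell markers 7 of 10 rose in WT cells and 9 of 10 in DKO cells. Their mean level was 6.77 to 7.38 on the WT Flk1+ arrays and 9.85 to 10.03 on the WT Dex- arrays. Of 10 ES cell markers 8 fell in WT and 6 in DKO cells. The mean level of mesoderm markers was 10.41 to 10.50 on the WT Flk1+ arrays and 7.38 to 7.42 on the WT Dex- arrays. The part of these cell types in the serpin values was not tested. In such bulk samples, fewer cells of a type and less RNA per cell cannot be told apart.

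**Figure D3:**
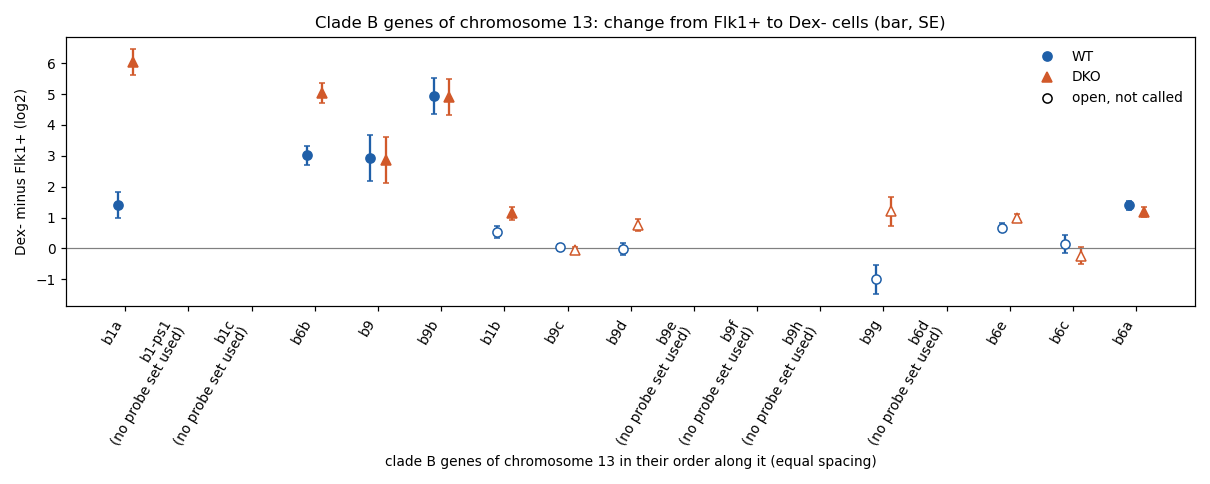
Change from Flk1+ to Dex- cells (log2, y axis; bar, SE) for the clade B genes of chromosome 13 in their order along it (x axis, equal spacing), with circles for WT, triangles for DKO and open symbols where not called. The increases near 3 to 6 belong to Serpinb1a (in DKO cells), Serpinb6b, Serpinb9 and Serpinb9b at the left end, with Serpinb9c, Serpinb9d, Serpinb9g, Serpinb6e and Serpinb6c to the right not called.

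By gene order on GRCm38.p6, Serpinb6b, Serpinb9, Serpinb9b and Serpinb1b follow each other near one end of the cluster after Serpinb1a, and Serpinb6e, Serpinb6c and Serpinb6a follow each other at the other end. Serpinb6c and its neighbour Serpinb6a had different patterns: Serpinb6a was at 10.54 or above on every array, while Serpinb6c fell from ES to Flk1+ cells and stayed at 4.93 to 5.35 on the Flk1+ and Dex- arrays. Of the 17 clade B genes the annotation places there, 6 were not represented by a probe set with a single symbol.

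Serpinb6c was high in PE and low in sorted mesoderm of both genotypes. Its ES values were 8.12 and 9.35 for WT and 7.20 and 6.98 for DKO arrays. Its PE values were 11.01 and 10.94 for WT and 11.55 and 11.19 for DKO arrays. Its Flk1+ values were 4.93 and 5.17 for WT and 5.28 and 5.35 for DKO arrays. PE was thus high, Flk1+ low and ES between, with no overlap within a genotype. From ES cells to PE it rose by 2.25 ± 0.28 in WT (adjusted p = 2.1e-05) and by 4.28 ± 0.28 in DKO cells (2.53e-08). From ES to Flk1+ cells it fell, by -3.68 ± 0.28 in WT (adjusted p = 1.71e-07) and by -1.78 ± 0.28 in DKO cells (0.000278). In ES cells themselves DKO was lower than WT by -1.64 ± 0.28 (adjusted p = 0.00474), and the WT replicates were over 2-fold apart. Without DKO ES replicate 2 that difference was -1.53 and not called (adjusted p = 0.0645). Removing a single WT ES replicate moved it to -2.25 or -1.03.

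From ES cells to PE, 4 members were called in WT and 7 in DKO cells. In WT cells Serpinb6c, Serping1 and Serpinh1 rose and Serpini1 fell. In DKO cells these moved the same way, Serpinb6a rose by 1.11 ± 0.16, Serpinb9g rose by 1.48 ± 0.46 and Serpinb1a fell by 1.46 ± 0.42. The DKO ES arrays read 3.43 and 3.57 for Serpinb9g and the DKO PE arrays 5.03 and 4.93. Its call (adjusted p = 0.0225) was lost without any 1 of these 4 arrays, with changes of 1.41 to 1.54. The Serpinb1a call (adjusted p = 0.0131) was lost without DKO ES replicate 2 (-1.28, 0.0922) or DKO PE replicate 1 (-1.29, 0.0916). The counts were 3 higher and 1 lower in WT, against 7.68% and 6.55% of all genes, and 5 higher and 2 lower in DKO cells, against 8.13% and 8.18%. All ES arrays were scanned on a day of their own, so differences between ES cells and other states and scan day cannot be told apart.

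From ES to Flk1+ cells Serpinh1 rose and Serpinb6c and Serpini1 fell in both genotypes. In DKO cells Serpinb6b also rose, by 1.12 ± 0.32 (adjusted p = 0.0201), and Serpinb1a fell by 1.39 ± 0.42 (0.0258). Both calls were lost without DKO ES replicate 1 (1.00 and -1.57) or replicate 2 (1.24 and -1.22). The Serpinb6b call was also lost without DKO Flk1+ replicate 1 (0.93), and that of Serpinb1a without replicate 2 (-1.09). The counts were 1 higher and 2 lower in WT, against 6.15% and 6.30% of all genes, and 2 higher and 3 lower in DKO cells, against 4.56% and 5.62%.

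Serpinh1, the collagen chaperone of the endoplasmic reticulum, which binds procollagen and does not inhibit proteases, was lowest in ES cells and rose to PE and through mesoderm culture in both genotypes. WT arrays read 7.95 and 8.25 in ES cells and 13.67 and 13.58 in PE. DKO arrays read 8.65 and 9.07 in ES cells and 13.98 and 14.10 in PE. ES arrays were thus the lowest of all 20 arrays. The rise was 5.53 ± 0.19 in WT (adjusted p = 5.97e-11), a 46.1-fold change, and 5.18 ± 0.19 in DKO cells (6.11e-11), a 36.4-fold change. Flk1+ arrays lay between 10.91 and 11.29, above ES cells by 2.85 ± 0.19 in WT and 2.33 ± 0.19 in DKO cells. Dex- arrays lay at 13.83 and 13.82 in WT and at 13.10 and 13.33 in DKO cells, a further rise of 2.88 ± 0.19 and 2.03 ± 0.19. With Dex the change was -0.22 ± 0.19 in WT and 0.74 ± 0.19 in DKO cells, neither called. Its second probe set correlated at 0.994 with the one used and was called higher in DKO than in WT ES cells, by 1.25 ± 0.18, where the first gave 0.76.

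The collagen genes and collagen-maturing enzymes with which Serpinh1 works were followed as a list. Of 20 measured, 11 rose and none fell from ES cells to PE in WT, with a median change of 1.08, and 11 rose and 1 fell in DKO cells, with a median of 1.72. From Flk1+ to Dex- cells 15 rose in WT and 12 in DKO cells. With Dex in DKO cells 5 rose and 6 fell: Col1a1 (-5.92), Col3a1 (-5.92), Col5a2 (-5.50), Col5a1 (-3.55) and Col1a2 (-3.19) fell, and the prolyl hydroxylase P4ha2 rose by 2.39. In WT cells 1 of the 20 was called. Serpinh1 itself was at 13.69 and 14.21 in DKO Dex+ cells, both above its DKO Dex- arrays.

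Serping1, the secreted inhibitor of the complement proteases C1r and C1s and of plasma kallikrein, was highest in PE within each genotype. It was at 6.47 and 6.95 in WT ES, 8.11 and 8.44 in WT PE, 7.02 and 7.15 in DKO ES and 8.88 and 9.45 in DKO PE cells. The groups did not overlap, and it rose by 1.57 ± 0.36 in WT (adjusted p = 0.00401) and by 2.08 ± 0.36 in DKO cells (0.000384). WT arrays read 6.29 and 6.03 without Dex and 5.37 and 5.78 with it. DKO arrays read 8.24 and 8.0 without Dex and 6.29 and 6.46 with it. The DKO Dex- arrays were thus above all other arrays of cultured mesoderm. Of 8 complement proteases and subunits measured, none was called with Dex in either genotype. Of these C2 had the largest change in DKO cells, -0.98 (adjusted p = 0.05).

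Serpini1, neuroserpin, which inhibits tissue plasminogen activator, was highest in ES cells and in DKO Dex+ cells. It was at 7.84 and 7.98 in WT ES, 7.92 and 7.72 in DKO ES, 5.95 and 6.0 in WT PE and 6.77 and 6.54 in DKO PE cells. Its Flk1+ values were 5.15 and 4.80 for WT and 5.53 and 5.66 for DKO arrays. It fell from ES cells to PE, by -1.94 ± 0.18 in WT and -1.16 ± 0.18 in DKO cells, and to Flk1+ cells, by -2.94 ± 0.18 and -2.22 ± 0.18. WT arrays read 5.47 and 5.72 without Dex and 6.12 and 6.65 with it. DKO arrays read 6.54 and 6.70 without Dex and 8.09 and 8.14 with it. The DKO arrays were above the WT arrays in both cultures. It has 3 probe sets: one correlated at 0.960 with the one used over the 20 arrays, and the third stayed between 3.13 and 3.58 and was never called. With the mean of the 3 probe sets in place of the brightest, 4 of its calls fell short of 2-fold: from ES cells to PE (-0.89) and from Flk1+ to Dex- cells (0.70) in DKO cells, with Dex in DKO cells (0.96) and DKO against WT in Dex- cells (0.59). That mean includes the third probe set, which hardly varied, so it gives smaller changes whatever the others show. The correlated probe set lost only the call of DKO against WT in Dex- cells (0.99).

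Before mesoderm culture few members were called between the genotypes, and few of all genes were. In ES cells 1 member, Serpinb6c, was lower in DKO cells and none was higher, against 0.269% and 1.12% of all genes. In PE Serpinb6b was higher in DKO cells, at 5.62 and 5.27 against 3.99 and 4.07, by 1.42 ± 0.32 (adjusted p = 0.0213), and none was lower, against 1.13% and 0.824% of all genes. That call was lost without any 1 of the 4 PE arrays, with changes of 1.25 to 1.59. In Flk1+ cells limma called no member, against 0.396% of all genes higher and 0.302% lower, and 7 members had an unadjusted p under 0.05. Without WT Flk1+ replicate 1 or replicate 2 there were 2 calls.

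In Dex- cells 4 members were higher in DKO than in WT cells and none was lower, against 3.51% and 2.34% of all genes. Serpinb1a was higher by 4.59 ± 0.42 (adjusted p = 3.99e-06), a 24.2-fold difference, and was at 11.23 and 10.76 against 6.03 and 6.77. Serpinb6b was higher by 2.74 ± 0.32 (4.08e-05), Serping1 by 1.96 ± 0.36 (0.00225) and Serpini1 by 1.02 ± 0.18 (0.00136). Within the 2 scan days that held both genotypes the differences were 3.99 and 5.20 for Serpinb1a, 2.89 and 2.60 for Serpinb6b, 1.96 and 1.95 for Serping1 and 0.97 and 1.07 for Serpini1. The Serpini1 difference lay near 2-fold and was 0.95 without DKO Dex- replicate 2 and 0.90 without WT Dex- replicate 1. Its correlated second probe set gave 0.99 ± 0.31 and was not called (adjusted p over probe sets = 0.0715), and the mean of its probe sets gave 0.59. Smooth muscle markers were at 9.85 to 10.03 on the WT and at 9.99 to 10.37 on the DKO Dex- arrays. Blood and megakaryocyte markers were at 5.78 to 5.99 in WT and at 6.51 to 6.94 in DKO Dex- cells, with 4 of 10 called higher. ES cell markers were at 5.65 to 5.69 and at 6.45 to 6.54, also with 4 of 10 called higher. Keratinocyte and epithelial markers were at 7.94 to 8.45 and at 8.92 to 8.98, and trophoblast markers at 5.67 to 5.83 and at 6.25 to 6.33. The mean level of mesoderm markers was 7.38 to 7.42 in WT and 7.23 to 7.33 in DKO cells, but the markers went both ways. Among them Eomes (3.92) and Pdgfra (2.25) were called higher in DKO cells and Aplnr (-4.73) lower. The part of these cell types in the serpin differences was not tested.

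**Figure D4:**
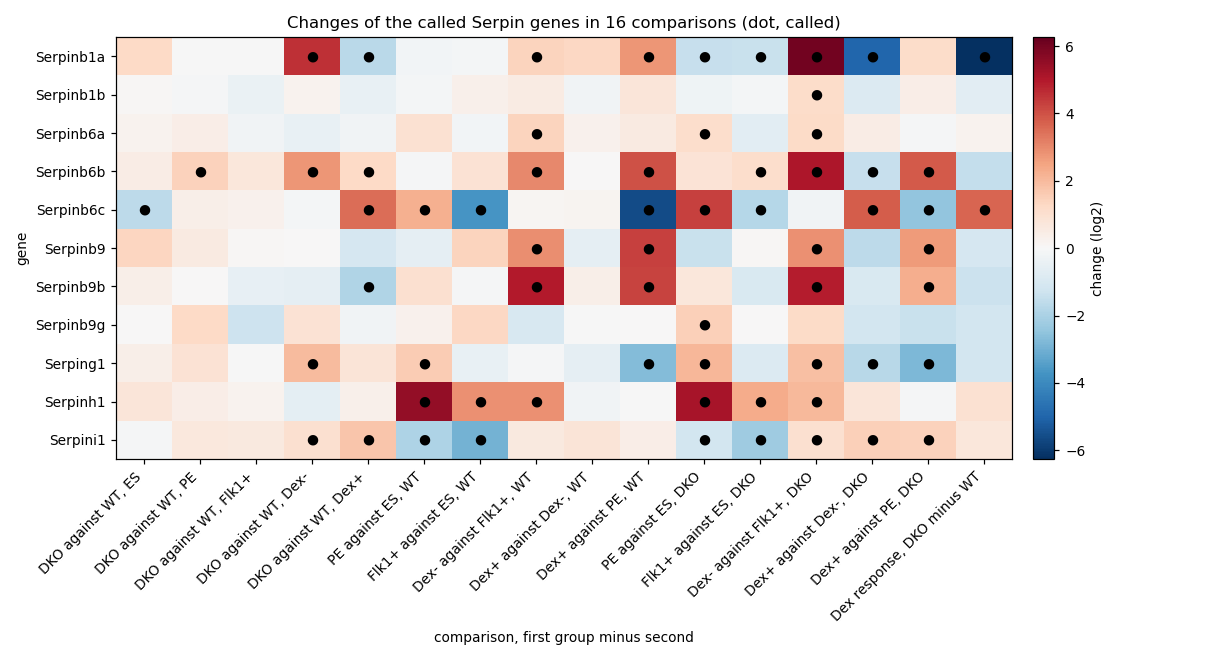
Changes of the 11 called genes (rows) in the 16 comparisons (columns, first group minus second), coloured by log2 change, with a dot where called. The column of Dex- against Flk1+ in DKO cells holds 9 dots, all increases, and the column of Dex+ against Dex- in WT cells holds none.

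With Dex, which activates Gata4GR, 5 Serpin genes changed in DKO mesoderm and none was called in WT mesoderm. Dex was given only to cells that carried Gata4GR, so Dex itself and Gata4GR cannot be told apart. Serpinb6c was at 4.97 and 5.19 in DKO Dex- cells and at 9.03 and 8.76 in DKO Dex+ cells, against 5.34 and 5.05, then 5.31 and 5.45, in WT cells. The DKO Dex+ arrays were the only cultured mesoderm arrays above 5.45. It rose by 3.82 ± 0.28 in DKO cells (adjusted p = 2.04e-07), a 14.1-fold change, and its change in WT cells was 0.18 ± 0.28. Serpinb1a went the other way in DKO cells, from 11.23 and 10.76 to 6.57 and 5.51, a fall of 4.96 ± 0.42 on the log2 scale (adjusted p = 7.58e-07). In WT cells Serpinb1a was at 6.03 and 6.77 without and at 7.92 and 7.50 with Dex, a change of 1.30 ± 0.42 that was not called (adjusted p = 0.144).

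Among the remaining members, Serpini1 rose by 1.5 ± 0.18 in DKO cells (adjusted p = 2.45e-05; 0.96 and short of 2-fold with the mean of its probe sets), Serping1 fell by 1.75 ± 0.36 (0.00295) and Serpinb6b fell by 1.46 ± 0.32 (0.0041). The last call was lost without DKO Dex- replicate 1 (-1.23, adjusted p = 0.0546). In WT cells Serpini1 changed by 0.79 ± 0.18 (adjusted p = 0.0278), short of 2-fold, Serping1 by -0.59 ± 0.36 and Serpinb6b by 0.02 ± 0.32. The counts were 2 higher and 3 lower in DKO cells, against 4.64% and 4.99% of all genes, and none in WT cells, against 1.15% and 0.451%. With limma, 4 members in WT cells had an unadjusted p under 0.05. The median change of the 40 members was -0.04 in DKO and -0.03 in WT cells, against 0.01 and 0.00 for all genes.

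The difference between the Dex responses of the genotypes was tested directly. It was called for Serpinb1a, at -6.26 ± 0.59 (limma, adjusted p = 1.22e-05), and for Serpinb6c, at 3.63 ± 0.39 (4.73e-05), against 3.13% of all genes lower and 2.73% higher. For Serpini1 it was 0.70 ± 0.25 (adjusted p = 0.122), for Serping1 -1.16 ± 0.52 (0.234) and for Serpinb6b -1.47 ± 0.45 (0.0662), none of them called. With scan day as a block 4 members were called, since Serpinb6b (adjusted p = 0.00878) and Serping1 (0.021) passed at unchanged differences. They also passed, at 0.00695 and 0.00825, with each state and replicate number as a block, an alternative chosen after seeing the data. For these 2 genes the call changed with the block. The number of calls also changed without a block: 5 members were called when the parental Flk1+ arrays were left out. A second probe set of Serpinb9 fell by 2.60 ± 0.32 with Dex in DKO cells (adjusted p over probe sets = 8.34e-05), from 8.11 and 7.60 to 5.25 and 5.26, and its difference in response was -2.76 ± 0.46 (0.00304). The brighter probe set of Serpinb9 gave -1.63 ± 0.75 and -1.05 ± 1.06, not called. In Dex+ cells the second probe set was also lower in DKO than in WT cells, by -1.81 ± 0.32 (0.00169), where the brighter one gave -1.05 and was not called. A second probe set of Serpinb1a, which can match related transcripts, correlated at 0.938 with the one used, but lost 5 of its 9 calls, among them Dex- against Flk1+ in WT cells and DKO against WT in Dex+ cells.

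**Figure D5:**
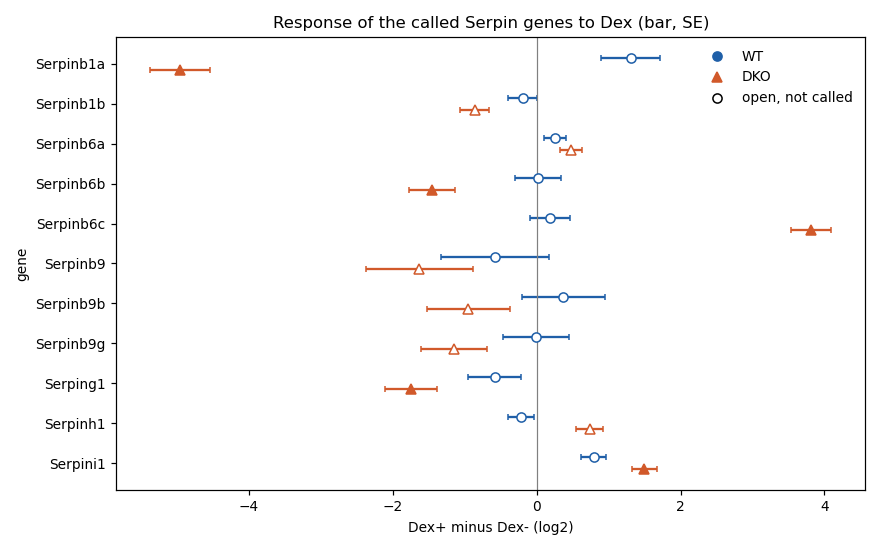
Change with Dex in cultured mesoderm (Dex+ minus Dex-, log2, x axis; bar, SE) for the 11 called genes (y axis), with circles for WT, triangles for DKO and open symbols where not called. All WT symbols are open, Serpinb1a is at 1.30 in WT and -4.96 in DKO cells, and Serpinb6c is at 0.18 and 3.82.

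In Dex+ cells 3 members were higher and 2 lower in DKO than in WT cells, against 4.82% and 4.83% of all genes. Serpinb6c was higher by 3.52 ± 0.28 (adjusted p = 4.82e-07), an 11.5-fold difference. Serpini1 was higher by 1.73 ± 0.18 (6.25e-06) and Serpinb6b, at 9.37 and 9.17 against 8.31 and 7.69, by 1.27 ± 0.32 (0.0105). Serpinb9b, at 11.32 and 10.64 against 13.02 and 12.75, was lower by -1.91 ± 0.58 (0.0304), and Serpinb1a was lower by -1.67 ± 0.42 (0.0101). Except for those of Serpinb6c and Serpini1, these calls depended on single arrays. Serpinb9b was not called without any 1 of the 4 Dex+ arrays (-1.57 to -2.24), Serpinb1a without DKO replicate 2 (-1.14) or WT replicate 1 (-1.45), and Serpinb6b without DKO replicate 1 (1.17) or WT replicate 2 (0.96). These comparisons share the DKO Dex+ arrays with the response to Dex in DKO cells.

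Markers of other cell types moved with the DKO Dex+ group. Of 13 primitive and parietal endoderm markers 10 rose and none fell with Dex in DKO cells (median change 2.98), and 4 rose in WT cells (0.64). Among them Sox17, a transcription factor of endoderm, rose by 5.34 in DKO cells. Their mean level was 12.25 to 12.45 on the DKO Dex+ arrays, 9.74 to 9.93 on the WT Dex+ arrays, 9.21 to 9.34 on the DKO Dex- arrays and 12.90 to 12.99 in DKO PE. Of 11 visceral endoderm markers 7 rose in DKO cells and none in WT cells, with Rbp4, the retinol carrier, up by 5.52. Of 10 smooth muscle and mural cell markers 8 fell in DKO cells and none in WT cells, and their mean level was 7.89 to 8.34 on the DKO Dex+ arrays against 9.99 to 10.37 on the DKO Dex- arrays. In the same comparison 3 of 10 ES cell markers, 3 of 9 hepatocyte markers and 2 of 9 endothelial markers rose and none fell. Of 9 mesoderm markers 1 rose and 3 fell, of 10 blood and megakaryocyte markers 1 rose and 1 fell, and 3 of 9 keratinocyte and epithelial and 2 of 6 trophoblast markers fell. Albumin, the defining hepatocyte gene, changed by 0.32 (adjusted p = 0.34). The part of these cell types in the serpin values was not tested.

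Set beside PE, which also follows Gata4GR activation, 6 members differed in Dex+ cells of each genotype. Serpinb6c was lower than in PE by -5.60 ± 0.28 in WT (adjusted p = 2.75e-09) and by -2.47 ± 0.28 in DKO cells (3.64e-05). Serping1 was lower by -2.70 ± 0.36 and -2.79 ± 0.36. Higher than in PE in both genotypes were Serpinb6b, by 3.97 ± 0.32 and 3.82 ± 0.32, Serpinb9, by 4.29 ± 0.75 and 2.67 ± 0.75, and Serpinb9b, by 4.24 ± 0.58 and 2.29 ± 0.58. Serpinb1a was higher in WT cells, by 2.77 ± 0.42, and Serpini1 in DKO cells, by 1.46 ± 0.18. The counts were 4 higher and 2 lower in each genotype, against 6.13% and 6.20% of all genes in WT and 2.73% and 1.74% in DKO cells. In DKO cells the Serpinb9 call (adjusted p = 0.0394) was lost without any of 12 single arrays, with changes of 2.58 to 2.76 there, its other probe set gave 1.11 ± 0.32 and was not called (adjusted p over probe sets = 0.0715), and that of Serpinb9b without any 1 of the 4 DKO Dex+ and PE arrays (1.95 to 2.63).

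The proteases and receptors around the family were counted for the response of DKO cells to Dex. None of 11 granule and neutrophil genes was called in either genotype. They were proteases, which include textbook targets of Serpinb1a, Serpinb6a and Serpinb9, and the pore-forming perforin (Prf1). Granzyme B (Gzmb) changed by -0.16. Of 12 lysosomal cathepsins 5 rose and 1 fell in DKO cells, with cathepsin H (Ctsh) up by 4.76, cathepsin L (Ctsl) by 1.54 and Ctso down by -1.51, and in WT cells Ctsh rose by 2.75. Of 8 caspases 1 fell in DKO cells, Casp12 (-1.31), which also fell in WT cells (-1.22). Of 12 genes of plasminogen activation 1 rose and 2 fell in DKO cells and none was called in WT cells: the tissue plasminogen activator Plat, the protease that Serpini1 inhibits, rose by 2.54 (adjusted p = 0.00247), and Lrp1 (-3.34) and S100a10 (-1.08) fell.

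Of 18 coagulation and contact proteases and their cofactors 4 rose in DKO cells: thrombomodulin (Thbd) by 2.76, prothrombin (F2) by 1.51, F10 by 1.09 and Pros1 by 1.07. In WT cells the protein C receptor gene Procr rose by 4.86. Of 6 receptors of the low-density lipoprotein receptor family and their partners, which clear serpin and protease complexes from outside the cell, 2 rose and 2 fell in DKO cells, with Lrpap1 up by 3.81 and Lrp8 by 1.65, and Lrp1 down by -3.34 and Vldlr by -1.26. Of 27 other secreted protease inhibitors 1 rose, the trypsin inhibitor Spink1 by 6.07, and 1 fell, the metalloprotease inhibitor Timp3 (-3.02). Of 15 TGF-beta pathway genes 2 rose and 6 fell in DKO cells, with Tgfb3 down by -4.22 and Thbs1 by -3.94. The median changes in DKO cells were -0.03 for the granule and neutrophil genes, 0.17 for the cathepsins, 0.02 for the caspases, -0.07 for plasminogen activation, 0.09 for coagulation, 0.51 for the receptors, 0.09 for the other inhibitors and -0.63 for the TGF-beta genes, against 0.01 for all genes.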

How the data were processed

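Total RNA (50 ng) had been labelled in 2 cycles and hybridised to Affymetrix MOE430v2 arrays. The authors deposited log2 values per probe set, made with RMA (background correction, quantile normalization and median polish). The version is not given in the sources used here. Raw intensities were not used, and the number of arrays limits the precision.

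Of 45101 probe sets, 34945 had 1 gene symbol in the platform annotation, 932 had several, 9160 had none here and 64 were controls. Names were updated through RefSeq (GRCm38.p6). Each of 18193 genes was read by its brightest probe set on average over the 20 arrays. The 40 Serpin genes had 56 probe sets, and 3 with several symbols were left out. All 20 arrays entered 1 linear model of group means in limma (3.58.1, R 4.3.3; 10 residual and 4.54 prior degrees of freedom), for 16 comparisons and the F test. The methods of the study name SAM, which was not used here. An exact permutation test of 2 against 2 arrays cannot give a two-sided p below 0.333.

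The members named in the text were those called, the only members of a clade letter and, from each of 20 gene lists (245 entries, 233 measured, 10 genes in more than 1 list), some of up to 6 genes with the largest DKO response to Dex. Further uncalled members, among them Serpina3n, Serpina6, Serpina7, Serpinf1, Serpinf2, Serpini2, Serpinb6e and those on chromosome 1, were named after their values were seen. Members and lists were chosen with earlier results of these data known. Scan days came from the deposited experiment information. Alternatives changed the probe set choice, scaling, filter, variance model, threshold, batch and arrays. The scripts were tested on simulated data.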

Additional observations from a re-analysis of the deposited data

Results flagged for a closer look

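The response to Dex differed between the genotypes, by a test of the difference itself, for Serpinb1a and Serpinb6c. For Serpinb1a the DKO response minus the WT response was -6.26 on the log2 scale, and both DKO Dex+ arrays were below both DKO Dex- arrays. For Serpinb6c it was 3.63, and both DKO Dex+ arrays were above both DKO Dex- arrays. Serpinb6c is read by a single probe set that can match related transcripts.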

How the results depend on the processing

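No called Serpin value changed direction under 1 changed choice, where 798 values of called members stayed past the threshold and 16 did not. With 1 array left out 1226 stayed and 54 did not. Leaving out 1 array could not reverse a comparison of one group with another, since both arrays of one group lay above both of the other. Scaling moved the median of all genes by at most 0.066. With no minimum fold the counts of members called became 2 for DKO against WT in ES cells and in PE, 7 and 12 from ES cells to PE in WT and DKO cells, 8 from ES to Flk1+ cells in DKO cells, 2 and 10 with Dex in WT and DKO cells and 4 for the difference in Dex response. Without the parental Flk1+ arrays they were 3 for DKO against WT in ES cells, 2 in PE, 5 from ES to Flk1+ cells in WT, 1 with Dex in WT cells and 5 for the difference in response. Fitting only the groups compared gave 2 in ES cells and 2 in PE, and the mean of a gene's probe sets gave 2 in ES cells. With scan day as a block there were 2 in PE and 4 for the difference in response. That block could give neither the F test nor comparisons of ES cells with other states. Leaving out probe sets ending in _x_at or _s_at, which removes Serpinb6c, left 1 for the difference in response. For 43 called values with a scan day shared by both groups, 46 of the 48 within-day values were at least 2-fold, while 19 called values had no shared day. Their direction could not differ from the pooled one, because the arrays of the groups did not overlap. The within-day values from Flk1+ to Dex- cells rest on 1 scan day. Its Flk1+ arrays came from the parental lines and from another chip lot than its Dex- arrays. The causes of these shifts were not tested.

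With 1 array left out, the counts for DKO against WT ranged from 0 to 2 in ES cells, PE and Flk1+ cells and from 3 to 5 in Dex+ cells. They ranged from 2 to 4 for the difference in response, from 0 to 1 with Dex in WT cells, and from ES to Flk1+ cells from 3 to 7 in WT and from 3 to 5 in DKO cells. The counts of 2 in these first 3 states, of 4 for the response and of 5 and 7 in WT Flk1+ cells came without WT Flk1+ replicate 1 or replicate 2, and the count of 1 with Dex came without WT Dex+ replicate 1 or WT Flk1+ replicate 1 or 2.

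The labels do not say that replicate numbers pair the arrays. Over 45 pairs of groups the deviations of same-numbered arrays correlated at -0.262 to 0.361, 13 above 0.1 and 8 under -0.1. Between WT and DKO of the same state they correlated at 0.190 in ES, 0.360 in PE, 0.311 in Flk1+, 0.175 in Dex- and 0.282 in Dex+ cells, all above 0.1, and such arrays shared their scan day and chip lot. With a replicate block the counts were 5 for DKO against WT in Dex+, 4 in Dex-, 1 in ES, 0 in Flk1+ and 1 in PE cells, 5 and 0 with Dex in DKO and WT cells, 10 and 6 from Flk1+ to Dex- cells, 6 each for Dex+ cells against PE, 5 and 4 from ES to Flk1+ cells, 7 and 4 from ES cells to PE, 3 for the difference in response and 15 by the F test, all within 1.5 times those without it. With each state and replicate number as a block, chosen after seeing the data, which allows only the comparisons of DKO with WT, the counts were 2 in ES, 2 in PE, 0 in Flk1+, 4 in Dex- and 5 in Dex+ cells and 4 for the difference in response.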
